A study of Arabidopsis thaliana with 4 samples.

Results

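Arabidopsis cells carry 2 small genomes outside the nucleus, and the transcripts of both were followed side by side in developing seeds. The members are all genes of the deposited expression matrix whose identifier starts with ATCG, the chloroplast genome, or ATMG, the mitochondrial genome. They are 133 chloroplast and 152 mitochondrial genes, 285 of the 33187 in the matrix. Identifier alone set which genes are members, and the choice of these 2 genomes was made with earlier results of these data known. Whole seeds of Arabidopsis thaliana were collected 7 days post anthesis, with embryos at the torpedo to linear stage. The groups were the wild type, with 2 libraries, and an erf4 mutant with a T-DNA insertion (SALK_073394; erf4_2 in the sample titles), also with 2 libraries. ERF4 belongs to the AP2/ERF family of transcription factors and acts as a repressor. Age, tissue and RNA preparation are the same for both groups. The labels describe 1 insertion line and give neither the parental accession nor the number of plants behind a library, so spread between replicates may be technical.

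Values are TPM, each gene's share of a library's transcripts scaled to 1000000. TPM keep no read counts, so depth is unknown, and an exact 0 may be a failed estimate. In such bulk samples fewer cells of a type and less RNA per cell cannot be told apart. The labels call the preparation standard and start from total RNA. Selection of polyadenylated RNA or removal of ribosomal RNA, either of which sets how much organelle RNA enters a library, is not given in the sources used here. ERF4 itself (AT3G15210) had 38.0 and 33.0 TPM in wild-type seeds and 34.6 and 41.3 TPM in the erf4-labelled libraries, so its level was not lower under the erf4 label and does not check it. All 9 seed markers were above 0 in every library, among them LEC1 of the embryo, BAN of the seed coat and EPR1 of the endosperm. All 9 markers of silique wall and leaf were also above 0 in every library. Their summed level was 762 and 624 TPM in wild-type seeds and 974 and 846 TPM in the erf4-labelled libraries.

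Chloroplast DNA encodes core subunits of the photosystems, the cytochrome b6f complex, the ATP synthase and RuBisCO, together with the ribosomal RNAs, transfer RNAs and part of the proteins used to express them. Its transcripts are made by a plastid-encoded RNA polymerase, which depends on nuclear sigma factors, and by a nuclear-encoded phage-type polymerase. Mitochondrial DNA encodes subunits of the respiratory complexes and the ATP synthase, proteins of cytochrome c assembly and some ribosomal components, and is read by phage-type polymerases. Young seeds of Arabidopsis are green, and embryo plastids are photosynthetically active before the seed dries. Organelle RNAs of plants mostly lack a stable poly(A) tail, and adding one usually marks a transcript for decay.

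The annotation used for names, RefSeq TAIR10.1, does not list these identifiers directly. Its notes on nuclear genes name 51 of them as best protein matches, 6 in the chloroplast and 45 in the mitochondrion, and 21 of the latter only as an unknown protein. All other members are given by identifier, without a role.

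Both organelle genomes contributed very little to the measured transcripts, and the chloroplast contributed more than the mitochondrion in every library. Chloroplast genes summed to 951 and 1011 TPM in wild-type seeds and to 930 and 1354 TPM in the erf4-labelled libraries, which is 0.0931% to 0.135% of a library. Mitochondrial genes summed to 94.1 and 119 TPM in wild-type seeds and to 144 and 390 TPM in the erf4-labelled libraries. The chloroplast sums of the groups overlapped, whereas both mitochondrial sums of the erf4-labelled libraries lay above the wild-type range. Within a library the chloroplast sum was 10.1 and 8.48 times the mitochondrial sum in the wild type, and 6.44 and 3.47 times in the erf4-labelled libraries.

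Few genes of either genome made up these sums, and many were listed at 0. Of the chloroplast genes, 58 (43.6%) were at 0 in all 4 libraries, 75 were above 0 in at least 1 library and 53 were above 0 in all 4. Of the mitochondrial genes, 79 (52.0%) were at 0 throughout, 73 were above 0 at least once and 36 were above 0 in all 4. Among the 32902 other identifiers, 20.6% were at 0 in all 4 libraries. These shares were not matched for gene class or length. A level of at least 1 TPM was reached by 38 and 38 chloroplast genes in the wild-type libraries and by 27 and 37 in those labelled erf4. For the mitochondrion these counts were 16 and 20 in the wild type and 15 and 18 in the erf4-labelled libraries.

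**Figure D1:**
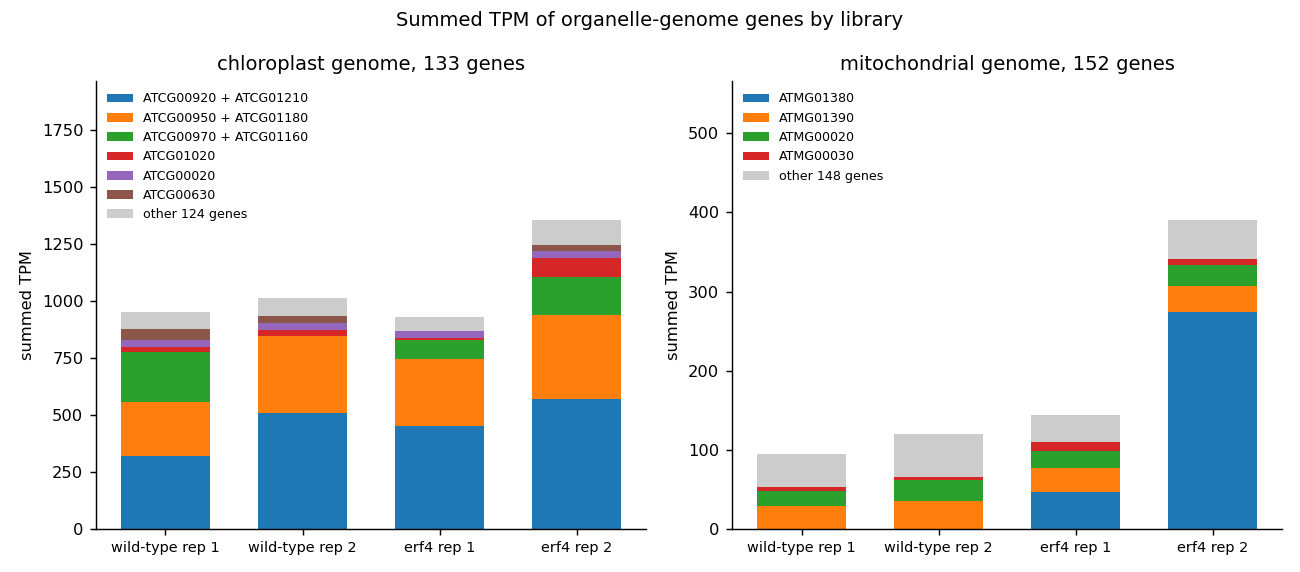
Summed TPM of the chloroplast (left) and mitochondrial (right) genes in each of the 4 libraries, as stacked bars that start at 0 on axes of different height; colours mark the most abundant genes and grey all others. Pairs of chloroplast genes with equal values make up most of each left-hand bar, and on the right ATMG01380 appears only in the erf4-labelled libraries, at 46.5 and 274 TPM.

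The chloroplast sum rested on 3 pairs of genes whose values were equal in every library. Over all members, 8 such pairs were found in the chloroplast, taking equal values in all 4 libraries and a level above 0 in at least 3 of them as the rule. The chloroplast genome is known to hold a large inverted repeat, whose genes are present in identical copies, and the reads of identical copies cannot be told apart. ATCG00920 and ATCG01210 had 159 and 254 TPM each in wild-type seeds and 226 and 285 TPM each in the erf4-labelled libraries. ATCG00950 and ATCG01180 had 120 and 168 TPM each in wild-type seeds and 146 and 185 TPM each in the erf4-labelled libraries. For both pairs wild type replicate 1 was the lowest library, erf4 replicate 2 the highest, and the groups overlapped. The level of the first pair was 1.33, 1.51, 1.54 and 1.54 times that of the second in wild type replicates 1 and 2 and erf4 replicates 1 and 2, a narrower range than that of either pair.

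The third pair behaved otherwise. ATCG00970 and ATCG01160 had 108 and 0 TPM each in wild-type seeds and 41.3 and 81.6 TPM each in the erf4-labelled libraries. One wild-type library was therefore the highest of the 4 and the other was listed at 0. The 3 pairs together held 81.3% and 83.5% of the chloroplast sum in the wild type and 88.9% and 81.4% in the erf4-labelled libraries. None of these genes has a reference name, so the part of ribosomal RNA in the sum is not known here. The other 127 chloroplast genes summed to 177 and 166 TPM in wild-type seeds and to 103 and 252 TPM in the erf4-labelled libraries.

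Other abundant chloroplast genes were either even or patchy across libraries. ATCG00020 was among the most even members, with 29.6 and 32.0 TPM in wild-type seeds and 28.3 and 32.4 TPM in the erf4-labelled libraries. ATCG00490 had 7.89 and 5.91 TPM in wild-type seeds and 8.48 and 7.41 TPM in the erf4-labelled libraries. Neither separated the genotypes. By contrast ATCG01020 had 22.4 and 26.4 TPM in wild-type seeds but 11.3 and 84.8 TPM in the erf4-labelled libraries, the lowest and the highest value of the 4. ATCG00630 had 50.4 and 28.4 TPM in wild-type seeds and 0 and 25.1 TPM in the erf4-labelled libraries. ATCG00700 was listed at 0 in 3 libraries and at 27.7 TPM in erf4 replicate 2, and ATCG00070 had 0 and 12.9 TPM in wild-type seeds and 0 and 6.07 TPM in the erf4-labelled libraries. The matrix gives no gene lengths, so how many reads stand behind such values is unknown.

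**Figure D2:**
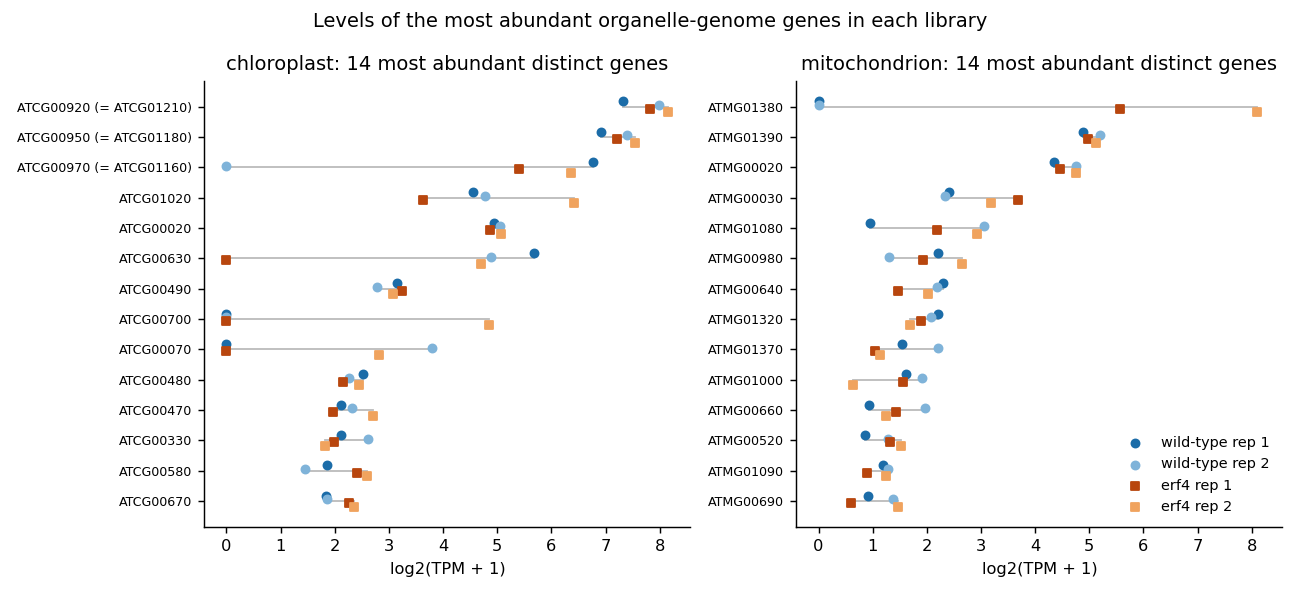
Level on log2(TPM + 1) of the 14 most abundant distinct chloroplast (left) and mitochondrial (right) genes, with circles for the wild-type libraries, squares for those labelled erf4, and a grey line over their range; a second identifier in brackets has the same values. ATCG00020 and ATMG01390 are nearly level across libraries, whereas ATCG00970, ATCG00630 and ATMG01380 reach from 0 to the upper part of the axis.

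The 6 chloroplast genes with a reference name had low levels. The gene for the proteolytic subunit of the stromal Clp protease (ATCG00670) had 2.57 and 2.60 TPM in wild-type seeds and 3.81 and 4.12 TPM in the erf4-labelled libraries, so that the groups did not overlap. The gene for ribosomal protein L2 (ATCG01310, equal in value to ATCG00830) had 2.21 and 1.68 TPM in wild-type seeds and 2.03 and 2.14 TPM in the erf4-labelled libraries. The genes for ribosomal proteins S11 (ATCG00750) and L20 (ATCG00660), which build the small and the large plastid ribosomal subunit, were lower still. S11 had 1.08 and 0.32 TPM in wild-type seeds and 0.88 and 0.65 TPM in the erf4-labelled libraries, and L20 was above 0 only in erf4 replicate 2, at 1.53 TPM. ATCG00430, named photosystem II reaction center protein G, had 1.08 and 0.70 TPM in wild-type seeds and 1.01 and 1.48 TPM in the erf4-labelled libraries. ATCG00530, named a CemA-like proton extrusion protein, had 1.26 and 2.05 TPM in wild-type seeds and 0.65 and 1.44 TPM in the erf4-labelled libraries.

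In the mitochondrion a few genes were likewise far above the rest. ATMG01390 had 28.5 and 35.6 TPM in wild-type seeds and 30.5 and 33.7 TPM in the erf4-labelled libraries. ATMG00020 had 19.5 and 26.0 TPM in wild-type seeds and 21.0 and 25.9 TPM in the erf4-labelled libraries. In both genes, as in the 2 most abundant chloroplast pairs, wild type replicate 1 was the lowest library, and the groups overlapped.

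ATMG01380 set the mitochondrial sum apart between the groups. It was listed at 0 in both wild-type libraries and at 46.5 and 274 TPM in erf4 replicates 1 and 2, where it held 32.2% and 70.0% of all mitochondrial TPM. Without it the mitochondrial sum was 107 ± 17.8 TPM in wild-type seeds and 107 ± 13.4 TPM in the erf4-labelled libraries (SD, n = 2). With it, the means were 107 ± 17.8 and 267 ± 174 TPM. The gene reached the 1 TPM needed for testing only in the erf4-labelled libraries, so the values that admitted it also set its p. That p is given as description. It was the smallest limma p of all members (adjusted p = 0.276), and the gene was not called. No fold is given against a group listed at 0, and an exact 0 may be a failed estimate. The gene has no reference name, so its class is not known here.

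Named genes for the respiratory chain were low. Of the 3 named complex I genes, only that for NADH dehydrogenase 2B (ATMG01320) was above 0 in all libraries, with 3.63 and 3.21 TPM in wild-type seeds and 2.69 and 2.24 TPM in the erf4-labelled libraries. Both values were below the wild-type range. NADH dehydrogenase 3 (ATMG00990) was above 0 only in wild type replicate 2, at 0.97 TPM, and NADH dehydrogenase 1A (ATMG01275) was listed at 0 throughout. Apocytochrome b (ATMG00220), the haem-binding core of complex III, was above 0 in wild type replicate 2 alone, at 0.10 TPM. The gene for subunit 3 of cytochrome c oxidase (ATMG00730) had 0.12 and 0.12 TPM in wild-type seeds and 0.06 and 0.13 TPM in the erf4-labelled libraries.

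All 5 named ATP synthase genes were above 0 in at least 3 libraries. Together they summed to 4.27 and 10.3 TPM in wild-type seeds and to 5.50 and 10.1 TPM in the erf4-labelled libraries. Subunit 9 (ATMG01080), part of the membrane ring of the enzyme, varied most, with 0.94 and 7.27 TPM in wild-type seeds and 3.55 and 6.62 TPM in the erf4-labelled libraries. ATMG01090, also named for subunit 9, had 1.28 and 1.44 TPM in wild-type seeds and 0.86 and 1.37 TPM in the erf4-labelled libraries. Subunit 1 (ATMG01190), which carries part of the catalytic head, had 1.08 and 0.73 TPM in wild-type seeds and 0.73 and 0.89 TPM in the erf4-labelled libraries, while subunit 6-1 (ATMG00410) stayed between 0.36 and 0.82 TPM. Differences between replicates were as large as those between genotypes for each of these genes.

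Of the genes with a reference name for cytochrome c assembly, ATMG00180 had 0.92 and 1.14 TPM in wild-type seeds and 0.73 and 0.84 TPM in the erf4-labelled libraries. The 2 others so named did not exceed 0.14 TPM. Of the 4 named ribosomal protein genes, the one of the S12/S23 family (ATMG00980) was the highest, with 3.62 and 1.47 TPM in wild-type seeds and 2.82 and 5.30 TPM in the erf4-labelled libraries. The genes for L5 (ATMG00210) and S7 (ATMG01270) were each at 0 in 2 libraries, and S4 (ATMG00290) was at 0 in all. A mitochondrial gene named Ycf1 protein (ATMG00370), after a chloroplast gene, had 1.25 and 0.81 TPM in wild-type seeds and 0.20 and 1.43 TPM in the erf4-labelled libraries. ATMG00280, named for the catalytic domain of the RuBisCO large chain, was listed at 0 throughout.

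Nuclear DNA on chromosome 2 holds a large insertion of mitochondrial sequence, and reads from the organelle and from the insertion can be hard to assign. The matrix holds 46 nuclear loci with identifiers starting AT2G07 whose best protein match is mitochondrial, paired with 45 mitochondrial genes. In 27 of these 46 pairs the nuclear locus had the higher mean TPM, in 13 the mitochondrial gene did, and 3 pairs were at 0 on both sides. The remaining 3 pairs had equal values, and 2 of them were above 0 in at least 3 libraries. One was ATMG00980 with AT2G07675, so that the S12/S23 family gene had exactly the value of its nuclear counterpart. The other was the gene for ATP synthase subunit 8 (ATMG00480) with AT2G07707, both at 0.60 and 0.35 TPM in wild-type seeds and at 0 and 0.36 TPM in the erf4-labelled libraries.

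The split between the genomes differed from gene to gene. For ATP synthase subunit 9, AT2G07671 had 8.06 and 7.47 TPM in wild-type seeds and 4.76 and 9.85 TPM in the erf4-labelled libraries, above ATMG01080 in each library. For ATMG01090, also named for subunit 9, the counterpart AT2G07777 stayed between 0.17 and 0.34 TPM, below ATMG01090 in each library. For NADH dehydrogenase 2B nearly all of the value stood at the mitochondrial gene, since AT2G07689 was at 0 in 3 libraries and at 0.05 TPM in erf4 replicate 1. For subunit 3 of cytochrome c oxidase the nuclear AT2G07687 was the higher one, with 0.79 and 0.33 TPM in wild-type seeds and 0.35 and 0.55 TPM in the erf4-labelled libraries. The nuclear loci summed to 22.0 and 17.7 TPM in wild-type seeds and to 16.5 and 26.3 TPM in the erf4-labelled libraries, which overlap. Single values of mitochondrial genes with such a counterpart are uncertain.

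**Figure D3:**
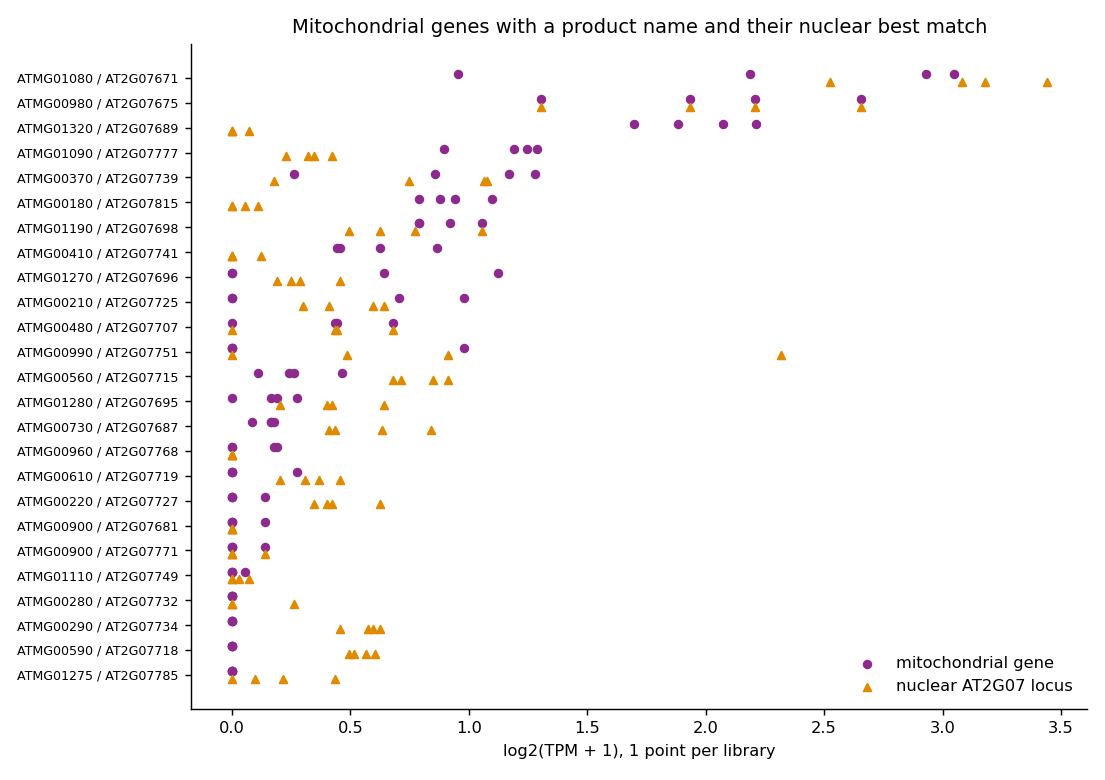
Level on log2(TPM + 1) of mitochondrial genes that have a product name (circles) and of the nuclear AT2G07 locus that matches each best (triangles), with 1 point per library. ATMG00980 and AT2G07675 coincide in every library, ATMG01320 stands well above its counterpart, and ATMG01080 lies below AT2G07671.

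For the comparison of genotypes, genes with at least 1 TPM in at least 2 libraries were tested on log2(TPM + 1) with limma over all 20804 such genes. This filter kept 39 of the 133 chloroplast genes and 18 of the 152 mitochondrial genes, counting both copies of equal pairs. The other members above 0 somewhere were 36 chloroplast genes with a mean of at most 6.93 TPM and 55 mitochondrial genes with a mean of at most 1.09 TPM. No member was called at a Benjamini-Hochberg adjusted p under 0.05 in limma, nor was any other gene (0% of all tested). At an unadjusted limma p under 0.05 there were 1 chloroplast and 2 mitochondrial genes, against 6.98% of all tested. The mitochondrial ones include ATMG01380, which passed the filter only through the erf4-labelled libraries. Log2 fold changes below are differences of mean log2(TPM + 1), which understate changes of low genes.

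Among the 39 tested chloroplast genes, log2 fold changes were positive in 20 and negative in 19, with a median of 0.01, beside 55.9% positive and a median of 0.03 over all tested genes. In 4 genes both erf4-labelled values exceeded the wild-type range (10.3%, against 21.5% of all tested genes), and in 7 both lay below it (17.9%, against 12.2%). Those below include ATCG00130 and ATCG00800, which passed the filter only through the wild-type libraries. The 18 tested mitochondrial genes had 7 positive and 11 negative log2 fold changes, with a median of -0.11. Of these, 3 lay above (16.7%) and 5 below (27.8%) the wild-type range. Those above include ATMG01380, which passed the filter only through the erf4-labelled libraries. Without wild type replicate 2 the mitochondrial median was 0.11 and without erf4 replicate 1 it was 0.13, so its sign rests on single libraries. Over the 11 chloroplast genes with a mean of at least 5 TPM the median was 0.33. That is the value of the equal pair ATCG00920 and ATCG01210, counted per copy, and the 11 include ATCG00700, above 0 only in erf4 replicate 2. Over the 4 such mitochondrial genes it was 0.55. They are ATMG01380, at 0 in the wild type, ATMG00030 (1.06), ATMG00020 (0.05) and ATMG01390 (0.009). The median of the 39 tested chloroplast genes was -0.10 without wild type replicate 2, -0.12 without erf4 replicate 2 and -0.003 without wild type replicate 1.

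The chloroplast gene with the smallest p, ATCG00580, had 2.64 and 1.74 TPM in wild-type seeds and 4.35 and 5.03 TPM in the erf4-labelled libraries. The fitted difference on log2(TPM + 1) was 0.85 (SE 0.26, 95% interval 0.19 to 1.51, limma adjusted p = 0.573). The Clp protease gene ATCG00670, shown above, had a log2 fold change of 0.47 (SE 0.22, limma adjusted p = 0.800). In the other direction ATCG00130 had 1.05 and 1.01 TPM in wild-type seeds and 0.16 and 0.35 TPM in the erf4-labelled libraries. Its log2 fold change was -0.70 (SE 0.29, limma adjusted p = 0.735), and -1.72 with 0.1 TPM added instead of 1. ATCG00130 passed the filter only through the wild-type libraries, so its fold and separation are given as description. In each of these 3 genes the groups did not overlap, and none was called.

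Lower chloroplast values in the erf4-labelled libraries were also seen for ATCG00330, with 3.33 and 5.13 TPM in wild-type seeds against 2.94 and 2.53 TPM (log2 fold change -0.47). ATCG00720 had 3.07 and 1.35 TPM against 0.91 and 1.35 TPM (log2 fold change -0.55), with the groups touching at 1.35. ATCG00140 was patchy, with 1.46 and 0 TPM in wild-type seeds and 0 and 5.54 TPM in the erf4-labelled libraries. For the most abundant pair, ATCG00920 and ATCG01210, the log2 fold change was 0.33 (SE 0.27) and ended at -0.003 without wild type replicate 1. For ATCG00950 and ATCG01180 it was 0.21 (SE 0.22) and -0.03 without that library. Without the same library, which leaves the wild-type library listed at 0 alone in its group, the pair ATCG00970 and ATCG01160 was called (limma adjusted p = 0.0247). With all 4 libraries its adjusted p was 0.995, and over 13 alternatives it ran from 0.0247 to 1.

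Among mitochondrial genes above 0 in every library, ATMG00030 stood out in size, with 4.29 and 4.06 TPM in wild-type seeds and 11.8 and 8.08 TPM in the erf4-labelled libraries. The fitted difference on log2(TPM + 1) was 1.06 (SE 0.25, 95% interval 0.43 to 1.68, limma adjusted p = 0.489). ATMG00520 also lay above the wild-type range, with 0.81 and 1.42 TPM against 1.5 and 1.86 TPM. Below that range lay ATMG01370, with 1.92 and 3.60 TPM in wild-type seeds against 1.05 and 1.2 TPM (log2 fold change -0.79, SE 0.32), and ATMG01000, with 2.08 and 2.76 TPM against 1.95 and 0.55 TPM. ATMG00640 had 3.91 and 3.57 TPM against 1.76 and 3.08 TPM, and ATMG00160 had 1.30 and 1.28 TPM against 1.17 and 0.39 TPM. In ATMG00660 the groups overlapped, with 0.91 and 2.91 TPM in wild-type seeds and 1.71 and 1.36 TPM in the erf4-labelled libraries. They also overlapped in ATMG01220, which had 1.37 and 0.51 TPM in wild-type seeds and was listed at 0 and 1.14 TPM in the erf4-labelled libraries. None of these genes was called.

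**Figure D4:**
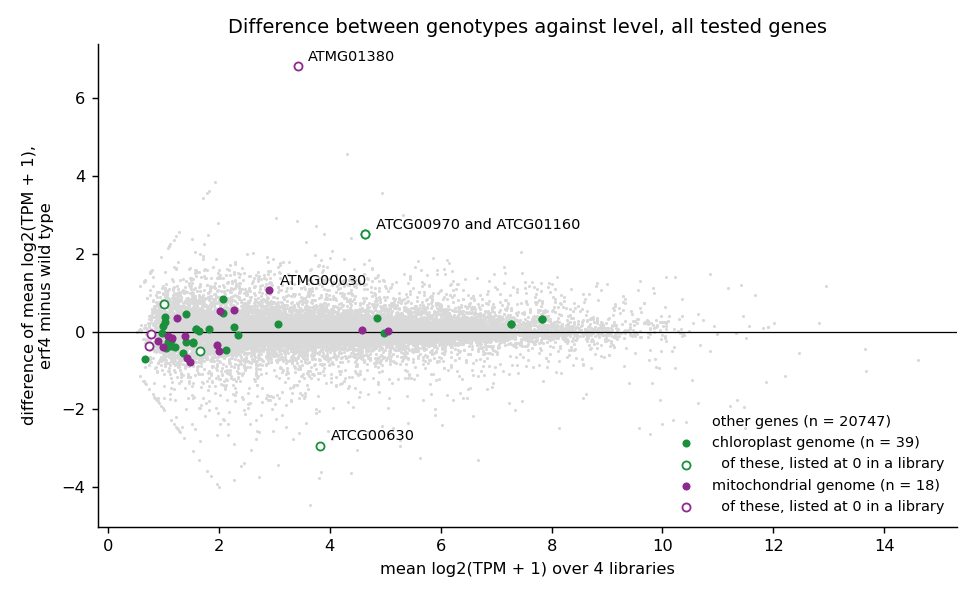
Difference of mean log2(TPM + 1) between the erf4-labelled libraries and the wild type against mean level for all tested genes, with other genes in grey, 39 chloroplast genes in green and 18 mitochondrial genes in purple; open circles are members listed at 0 in a library. Most members lie around 0 within the grey cloud, and the labelled points apart from ATMG00030 are open circles, whose height depends on the added 1 TPM and is no bound on a fold.

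Levels of these genes varied between the 4 libraries, whose range includes any difference between genotypes. Among members above 0 in all libraries with a mean of 1 to 5 TPM, the highest library was at the median 2.24 times the lowest for 24 chloroplast genes and 3.27 times for 12 mitochondrial genes. For 4183 other genes of the same mean level it was 1.87 times. Rank correlations between libraries, across members and given as a description, were 0.62 within the wild type and 0.65 within the erf4-labelled libraries for the 75 chloroplast genes above 0 somewhere. Between genotypes they ran from 0.53 to 0.80. For 73 mitochondrial genes they were 0.55 and 0.70 within groups and 0.50 to 0.61 between them. Genes are not independent replicates, and copies with equal values enter these correlations more than once.

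Nuclear genes for the expression of the organelle genomes showed no call either. These and all lists below were chosen with earlier results of these data known. Among 9 genes for sigma factors and phage-type polymerases, log2 fold changes were positive in 4 and negative in 5 (median -0.005), and 1 lay above the wild-type range (11.1%, against 21.5% of all tested genes). That gene was SIG4 (AT5G13730), a sigma factor gene, with 6.40 and 6.0 TPM in wild-type seeds and 7.39 and 9.77 TPM in the erf4-labelled libraries. RPOTp (AT2G24120), the phage-type polymerase of plastids, had 11.0 and 12.4 TPM in wild-type seeds and 8.04 and 13.8 TPM in the erf4-labelled libraries. Of 12 genes for proteins bound to the plastid-encoded polymerase, 5 were positive and 7 negative (median -0.03), and none lay above or below the wild-type range, against 21.5% and 12.2% of all tested genes. PAP8 (AT1G21600), one of them, had 42.4 and 52.4 TPM in wild-type seeds and 34.5 and 47.5 TPM in the erf4-labelled libraries. Among 6 genes for organelle RNases and RNA-binding endonucleases, 3 were positive and 3 negative. CSP41B (AT1G09340), which binds and stabilises chloroplast transcripts, had 70.5 and 25.9 TPM in wild-type seeds and 90.9 and 57.6 TPM in the erf4-labelled libraries, so that the groups overlapped.

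The nuclear partners of the organelle-encoded complexes were at far higher levels. The 9 nuclear genes for thylakoid subunits summed to 5397 and 4618 TPM in wild-type seeds and to 5819 and 5527 TPM in the erf4-labelled libraries, above the sum of all chloroplast genes in each library. That chloroplast sum is not limited to genes for these complexes, and its most abundant equal pairs held 81.3% to 88.9% of it. How RNA was selected, which sets how much organelle RNA enters a library, is not given. All 9 nuclear genes had a positive log2 fold change (median 0.17), 7 lay above the wild-type range (77.8%, against 21.5% of all tested genes) and none was called by limma. ATPC1 (AT4G04640), the gamma subunit of the chloroplast ATP synthase, had 235 and 192 TPM in wild-type seeds and 260 and 262 TPM in the erf4-labelled libraries. PSAF (AT1G31330), a docking subunit of photosystem I, had 718 and 587 TPM in wild-type seeds and 816 and 743 TPM in the erf4-labelled libraries. The summed levels of the silique wall and leaf markers, given above, were likewise higher in both libraries labelled erf4. Of these 9 markers 6 lay above the wild-type range (66.7%, against 21.5% of all tested genes). Another 2, FIL and YAB3, lay below it (22.2%, against 12.2%). The part of these markers in the thylakoid values was not tested.

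Of 15 nuclear genes for the respiratory chain, 9 were positive and 6 negative (median 0.04), with 4 above (26.7%, against 21.5% of all tested genes) and 1 below the wild-type range (6.67%, against 12.2%). They summed to 2157 and 2096 TPM in wild-type seeds and to 2178 and 2134 TPM in the erf4-labelled libraries. SDH2-2 (AT5G40650), an iron-sulphur subunit of succinate dehydrogenase, had 43.2 and 43.0 TPM in wild-type seeds and 49.1 and 49.2 TPM in the erf4-labelled libraries, with a log2 fold change of 0.18 (SE 0.13). CI75 (AT5G37510), a complex I subunit, had 53.0 and 50.6 TPM in wild-type seeds and 56.7 and 66.5 TPM in the erf4-labelled libraries. Neither was called.

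Erf4 replicate 2, which had the highest sum for both organelles, stood apart in seed storage transcripts. The 8 storage protein genes summed to 29671 and 15469 TPM in wild-type seeds and to 33415 and 855 TPM in the erf4-labelled libraries. All 8 were above 0 in every library, and all had a negative log2 fold change (median -2.11). Only 1 of them lay below the wild-type range (12.5%, against 12.2% of all tested genes). In the sum, erf4 replicate 1 was the highest library and erf4 replicate 2 the lowest, so the replicates did not share the direction. Of 7 heat shock genes, summed at 287 and 62.4 TPM in wild-type seeds and 458 and 211 TPM in the erf4-labelled libraries, 6 were tested, with 5 positive and 1 negative log2 fold change, and HSP21 was at 0 in wild type replicate 2. The 9 seed markers summed to 7566 and 6340 TPM in wild-type seeds and to 5244 and 1967 TPM in the erf4-labelled libraries. They include CRA1 (AT5G44120), a storage protein gene counted above, with 3283 and 2750 TPM in wild-type seeds and 2311 and 309 TPM in the erf4-labelled libraries. Of the 9 seed markers 6, CRA1 among them, lay below the wild-type range (66.7%, against 12.2% of all tested genes). Another 2, LEC1 and BAN, lay above it (22.2%, against 21.5%). LEC1 (AT1G21970) had 74.0 and 78.2 TPM in wild-type seeds and 118 and 110 TPM in the erf4-labelled libraries. Of the 9 seed markers 3 were positive and 6 negative, and of the 9 silique wall and leaf markers 7 were positive and 2 negative, none of them called by limma. The part of these differences in the organelle values was not tested. Without erf4 replicate 2 the log2 ratio of the mean chloroplast sums, libraries labelled erf4 over wild type, was -0.08 instead of 0.22. That of the mitochondrial sums was 0.44 instead of 1.33.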

How the data were processed

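The authors deposited 1 matrix of TPM with 2 decimals for 33187 identifiers, in 4 libraries, and the mean TPM of each genotype, which was not used. The tools were fastp, HISAT and RSEM, with no roles stated, per the submitters' processing notes; neither versions nor a build or annotation is given in the sources used here. Depth is unknown, so no counting interval is given. Genes with at least 1 TPM in at least 2 libraries entered limma 3.58.1 (R 4.3.3) as log2(TPM + 1). The model held genotype alone, with a trended variance, two-sided tests and Benjamini-Hochberg adjustment over all tested genes; fold changes on this scale understate changes of low genes. With 2 libraries a group no exact permutation test was used. The fit was tested on simulated data. Names come from notes in RefSeq TAIR10.1, and no coordinates are given. Identifier alone set the members, and the choice of the 2 genomes and of the lists was made with earlier results of these data known. Members named are the 12 most abundant of each organelle, the 5 largest log2 fold changes in each direction, and in nuclear lists up to 4 genes with the smallest p; others are named by reference name, class or equal values. Alternatives covered pseudocount, filter, scaling, variance model, threshold, replicate number and leaving out each library.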

Additional observations from a re-analysis of the deposited data

How the results depend on the processing

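Depth cannot be read from TPM, and 57 of the 285 members reached 1 TPM in at least 2 libraries. Changing the pseudocount, filter, scaling, variance trend or threshold (adjusted p of 0.1) left the number of genes called by limma at 0. With the replicate number as a term (replicate block) limma called 1083 genes, 2 of them members, ATMG00030 (adjusted p = 0.0301) and ATMG01380 (adjusted p = 6.04e-06); over all 13 alternatives their adjusted p ran to 1.00 and 0.491. The deviations of same-numbered libraries had a correlation of 0.35 over 20804 genes and -0.08 over 57 members; the labels do not say that the numbers pair libraries. Leaving out 1 library gave 0 to 8 called genes, 0 to 2 of them members; without wild-type replicate 1 the number was 7, and 8 when replicate 2 was left out instead, where the lone library is assumed to vary like the other group. The median log2 fold change was 0.33 for chloroplast and 0.55 for mitochondrial genes when a mean of at least 5 TPM was required. Equal pairs were counted per copy there, and the mitochondrial genes included ATMG01380. Without 1 library the median of the tested mitochondrial genes ran from -0.25 to 0.13. The log2 ratio of mean sums ran from -0.077 to 0.46 (chloroplast) and from 0.44 to 1.87 (mitochondrion) without 1 library; the latter was 0.011 without ATMG01380 and, in a check added after seeing the data, 0.046 over genes above 0 in all libraries. Of 24 members followed, 10 changed sign without 1 library, with log2 fold changes from -0.0033 to 0.67 (ATCG00920 and ATCG01210), -0.031 to 0.45 (ATCG00950 and ATCG01180), -1.04 to 1.76 (ATCG01020), -0.12 to 0.070 (ATCG00020), -0.15 to 0.17 (ATMG01390), -0.15 to 0.25 (ATMG00020), -0.49 to 1.60 (ATMG01080) and -0.63 to 0.40 (ATMG00660). ATMG01390 was also at -0.026 under median-of-ratios scaling; the causes were not tested. Sums over protein-coding members alone were not run, because the names used here do not class most members.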
